A study of Harpegnathos saltator with 27 samples.

Results

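The ovary comparison of 20-hydroxyecdysone with solvent used 6 of the 27 RNA sequencing libraries of the study, chosen by their labels: 3 from ovaries of Harpegnathos saltator workers injected in the abdomen with 500 ng of 20-hydroxyecdysone (20E) in Hank's balanced salt solution, and 3 from ovaries of workers injected with about 1 µL of 10% ethanol in the same salt solution (EtOH). All ants were workers of this ponerine ant, kept at 25 °C, and the tissue was taken 12 hours after injection from 3 ants per treatment, per the series' design. The labels give no ant age and do not say how much ethanol the hormone injections held. Ovaries from a treatment with the juvenile hormone analog methoprene (JHA, 500 ng per ant), and the non-visual brain and abdominal fat body under the same treatments are used below only for context. Because library 20E replicate 3 stood apart from the other 20E and EtOH ovaries, each result is given with it and without it.

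Harpegnathos workers can become egg-laying gamergates, whose ovaries are active. 20E is the active form of ecdysone, the steroid hormone of insect moulting. It binds a nuclear receptor made of EcR and Ultraspiracle, which switches on a first set of genes, many of them transcription factors, and these act on later sets of genes. In adult female insects the ovary is itself a source of ecdysteroids, and in Drosophila the hormone acts on egg chamber development. The count table pairs none of its 20659 gene identifiers with a name, and 0 of them were found among 14329 annotated genes of the species, so the known 20E response genes could not be looked up and no role is given for any gene below.

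The 6 libraries held 12629181 to 17350451 counts on genes, with 15254 to 16053 identifiers detected in each. Replicates differed by more than counting error in every pair. The chi-square of their counts over its degrees of freedom was 106 and 96.2 for the pairs of 20E replicates that included replicate 3, 16.1 for 20E replicates 1 and 2, and 10.6 to 19.1 for the EtOH pairs. Across 11234 genes, 20E replicate 3 correlated with 20E replicates 1 and 2 at 0.956 and 0.962 (Pearson's r of log2 CPM plus 1, where CPM are counts scaled to library size) and with the EtOH libraries at 0.967 to 0.975. It thus lay nearer to every EtOH library than to either other 20E library. It was also less like EtOH than the other 20E libraries were. 20E replicates 1 and 2 correlated with the EtOH libraries at 0.978 to 0.986, and the EtOH libraries with each other at 0.986 to 0.991. The number of genes in which a single library lay at least 2-fold beyond all of the other 5 was 171 above and 79 below for 20E replicate 3, and at most 13 above and 22 below for any other library. On the first principal component, 20E replicate 3 was at 43.9, 20E replicates 1 and 2 at -29.2 and -23.0, and the EtOH libraries between them, from -5.28 to 9.61. Not every measure set it apart. The median absolute difference from the EtOH mean, in log2 CPM plus 1, was 0.233 in 20E replicate 3. It was 0.176 and 0.220 in 20E replicates 1 and 2, and 0.453 in JHA replicate 1.

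Since no cell type marker could be named, the ovary libraries were compared by their share of counts on genes enriched in 1 tissue. Such genes averaged at least 2 CPM in the JHA libraries of that tissue and 8-fold or more over both others. The JHA libraries belong to neither group compared. The 401 ovary-enriched genes took 7.99, 8.02 and 5.00% of gene counts in 20E replicates 1, 2 and 3, against 6.87, 7.24 and 7.07% in EtOH replicates 1, 2 and 3. Two-sided exact permutation of the 6 libraries gave p = 1 for this difference, where the smallest p that 3 against 3 allows is 0.1. 20E replicates 1 and 2 were above every EtOH library and 20E replicate 3 below every one. The 247 fat-body-enriched genes, of which 149 were tested in ovary, took 0.724, 0.894 and 1.59% with 20E and 0.842, 0.842 and 0.921% with EtOH (exact permutation p = 0.8). The 1369 brain-enriched genes, of which 620 were tested, took 0.449, 0.445 and 0.730% with 20E and 0.508, 0.497 and 0.533% with EtOH (exact permutation p = 1). 20E replicate 3 was thus the lowest of the 6 for ovary-enriched genes and the highest for both other lists. JHA replicate 1 had the lowest ovary-enriched share of the 9 ovary libraries, 4.50%, while JHA replicates 2 and 3 were at 7.62 and 7.72%. The lists were defined in these same JHA libraries, so the JHA shares are a description only. In bulk ovary, fewer cells of a type and less RNA per cell cannot be told apart.

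**Figure D1:**
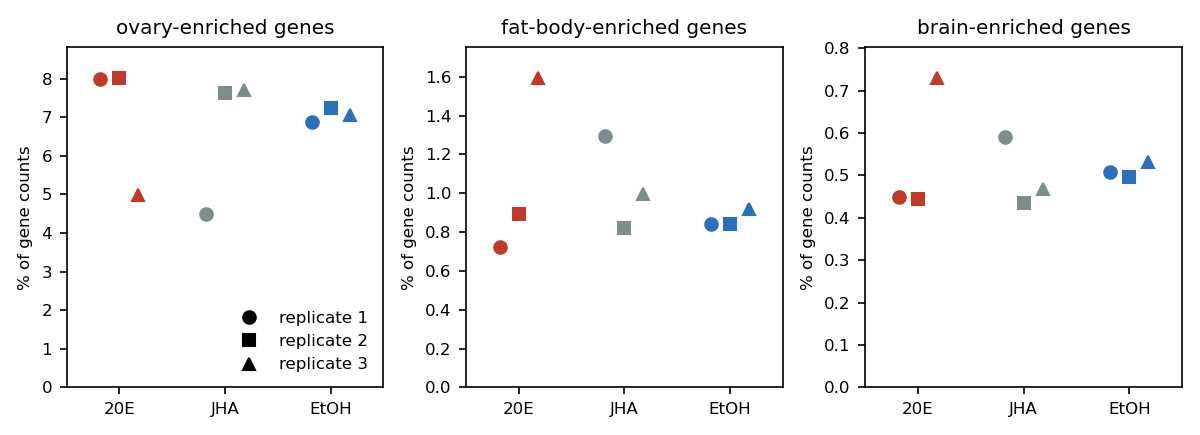
Share of gene counts (%, y axis) taken by genes enriched in ovary, fat body or brain, in each of the 9 ovary libraries, grouped by treatment (x axis); each point is 1 library and its shape the replicate number. 20E replicate 3, at 5.00, 1.59 and 0.730%, lies outside the range of the EtOH libraries in all 3 panels. The lists were defined in the JHA libraries.

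With all 6 libraries, no gene passed in edgeR's quasi-likelihood test at a Benjamini-Hochberg adjusted p under 0.05, so 0 of 11234 genes (0%) were called. An unadjusted p under 0.05 was reached by 497 genes (4.42%). DESeq2's Wald test called 102 genes, 37 higher and 65 lower, and limma voom with weights per library called 355, 43 higher and 312 lower. The smallest adjusted p in edgeR was 0.351. The p-values measure the spread between the ants sampled. The groups did not overlap in 1054 genes (9.38%), with 431 (3.84%) higher in every 20E library and 623 (5.55%) lower in every one. The median log2 fold change over all genes was 0.01, with 147 genes at least 2-fold higher and 179 at least 2-fold lower under 20E.

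The genes nearest to the threshold were separated in all 6 libraries. HSALG010206.2 stood at 32.5, 42.2 and 37.2 CPM in 20E replicates 1, 2 and 3, against 14.2, 15.7 and 14.0 CPM in EtOH replicates 1, 2 and 3. The lowest 20E ovary was about 2-fold above the highest EtOH ovary, and 20E replicate 3 sat between the other 20E libraries. The log2 fold change was 1.35 (SE 0.15, edgeR adjusted p = 0.351), and JHA libraries were at 14.7, 23.4 and 15.3 CPM. HSALG000871.2 had 120, 221 and 479 counts in 20E replicates 1, 2 and 3 (7.07, 14.3 and 36.8 CPM), against 4, 6 and 2 counts in the EtOH libraries (0.277, 0.472 and 0.161 CPM). The log2 fold change was 5.96 (SE 0.80, edgeR adjusted p = 0.351), with 20E replicate 3 the highest library, and the JHA libraries were at 0.248 to 0.547 CPM.

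On the lower side, HSALG004246.2 stood at 34.0, 30.3 and 40.2 CPM with 20E, against 64.2, 70.2 and 67.8 CPM with EtOH. Every 20E library lay below every EtOH library, with a log2 fold change of -0.95 (SE 0.14, edgeR adjusted p = 0.351). The JHA ovaries lay lower than EtOH as well, at 23.8, 54.7 and 48.4 CPM. HSALG023655.1 was at 22.7, 18.6 and 26.3 CPM with 20E and 49.97, 47.1 and 44.0 CPM with EtOH. Its log2 fold change was -1.06 (SE 0.16, edgeR adjusted p = 0.351), again with no overlap, while JHA libraries ranged from 37.9 to 81.5 CPM.

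**Figure D2:**
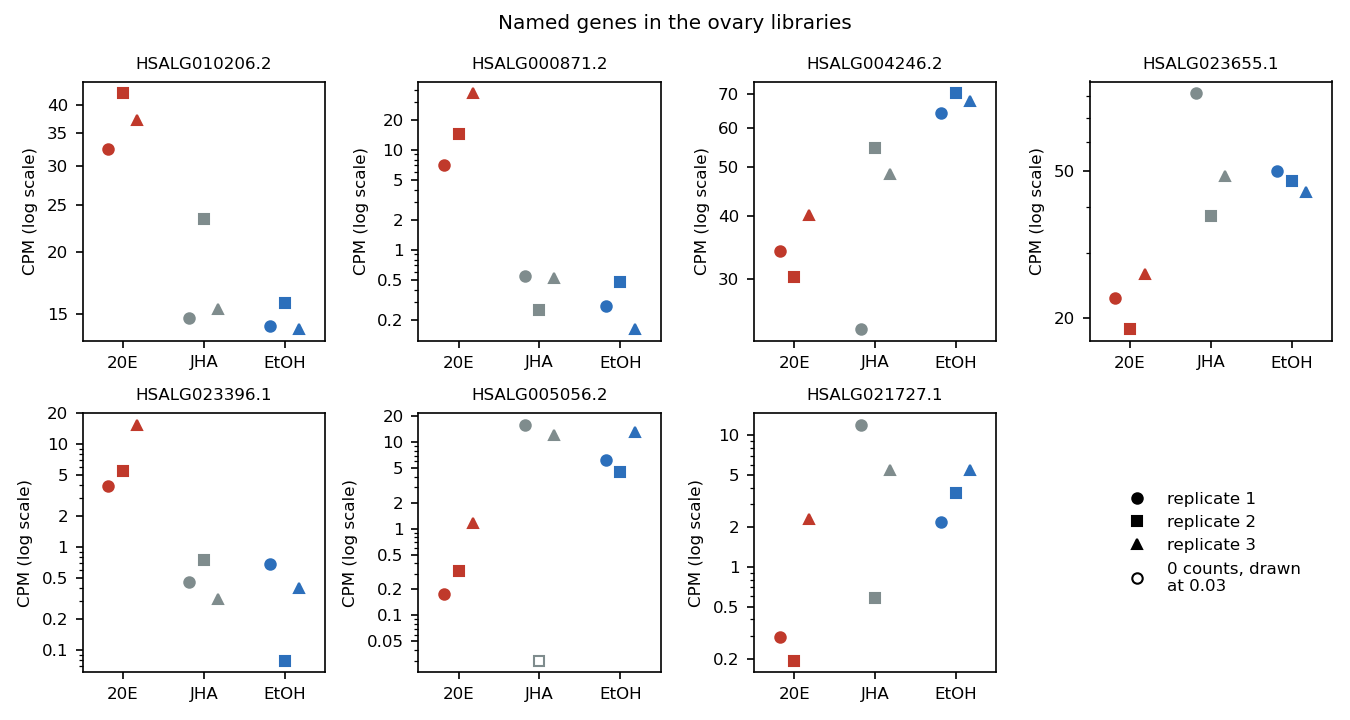
CPM (log scale, y axis) of the 7 genes named for the ovary comparison in the 9 ovary libraries by treatment (x axis); each point is 1 library, its shape the replicate number, and a hollow point marks 0 counts. 20E replicate 3 lies on the same side of EtOH as 20E replicates 1 and 2 in every panel but HSALG021727.1, where at 2.30 CPM it falls within the EtOH range. The genes named for the comparison of all 6 libraries were chosen with 20E replicate 3 in the fit, so its side there is no separate support.

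Without 20E replicate 3, 368 of 11476 genes were called (3.21%), 81 higher (0.706%) and 287 lower (2.5%) with 20E. An unadjusted p under 0.05 was reached by 2570 genes (22.4%). Leaving out any other library of the 6 gave 0 or 1 call. The groups did not overlap in 2408 genes that were higher (21%) and 2507 that were lower (21.8%). With 2 against 3 libraries, groups without a difference separate more often than with 3 against 3. These shares thus cannot be set directly beside those of all 6 libraries. The median log2 fold change over all genes was -0.01, with 123 genes at least 2-fold higher and 697 at least 2-fold lower under 20E. The coefficient of variation between replicates of the fit, 24.9% with all 6 libraries, was 16.0% without 20E replicate 3 and 24.4 to 28.3% without any other library. 20E replicate 3 was left out because it stood apart. The p-values of the fit without it therefore leave out the spread between ants that it added.

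**Figure D3:**
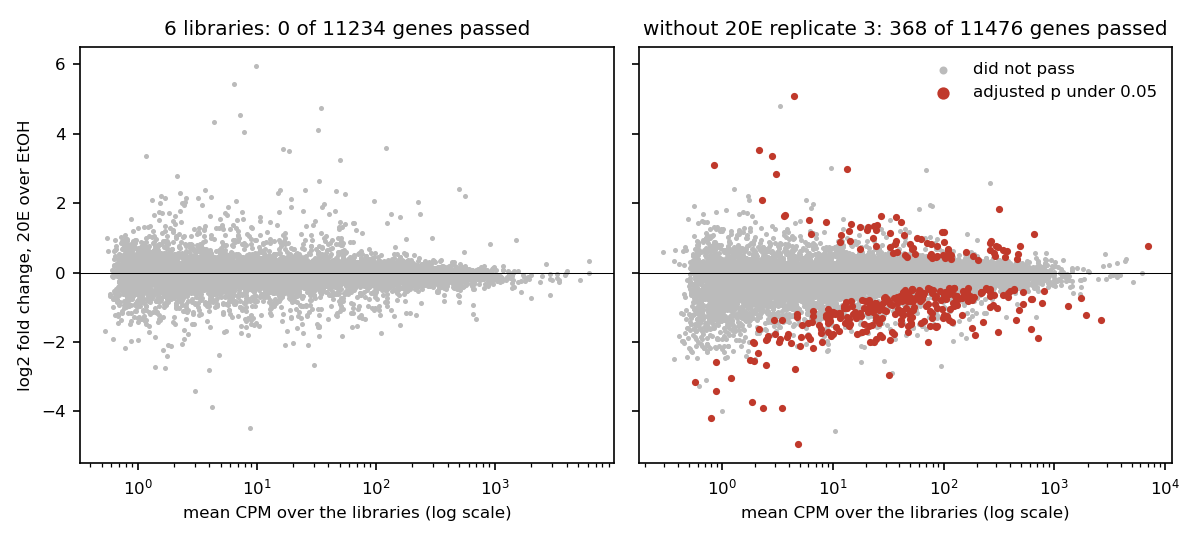
Log2 fold change of 20E over EtOH (y axis) against mean CPM (log scale, x axis) for each gene tested, with all 6 libraries (left) and without 20E replicate 3 (right); red points passed an adjusted p of 0.05. No gene passed on the left, while 81 higher and 287 lower genes passed on the right, across the whole range of levels.

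The 81 genes called higher had a median log2 fold change of 0.83, and 31 of them were at least 2-fold and 7 at least 4-fold higher. The 287 called lower had a median of -1.05, with 157 at least 2-fold and 20 at least 4-fold lower. Their median levels were similar, at 53.5 CPM for higher and 42.5 CPM for lower genes. By level, genes were split into 3 equal bins, and 1.88% of the lowest bin were called, 4.21% of the middle one (from 11.3 CPM) and 3.53% of the top one (from 67.6 CPM). Of the genes called higher, 20 (24.7%) were ovary-enriched, as were 14 (4.88%) of those called lower, while ovary-enriched genes made up 3.49% of all genes tested. The fat-body-enriched genes numbered 1 of 81 and 6 of 287, and the brain-enriched 3 of 81 and 15 of 287, where these lists made up 1.38 and 5.74% of genes tested. The median log2 fold change was 0.03 over 401 ovary-enriched, -0.19 over 158 fat-body-enriched and -0.39 over 659 brain-enriched genes tested. The part of tissue content in these calls was not tested.

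The largest rises among called genes with a mean of at least 2 CPM were those of HSALG000871.2 and HSALG023396.1. HSALG000871.2, described above, was higher in 20E replicates 1 and 2 by 5.09 log2 units (SE 0.47, edgeR adjusted p = 0.0104). HSALG023396.1 had 67, 86 and 202 counts in 20E replicates 1, 2 and 3 (3.95, 5.56 and 15.5 CPM), against 10, 1 and 5 counts in the EtOH libraries (0.692, 0.0787 and 0.403 CPM). Its log2 fold change was 3.54 without 20E replicate 3 (SE 0.55, edgeR adjusted p = 0.0237) and 4.35 with it (SE 0.79, adjusted p = 0.37). Both genes were thus highest in the library that stood apart, and neither exceeded 0.745 CPM in any JHA ovary.

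Of the genes called lower with a mean of at least 2 CPM, HSALG005056.2 fell furthest. It was at 0.177, 0.323 and 1.15 CPM in 20E replicates 1, 2 and 3, against 6.23, 4.57 and 13.0 CPM with EtOH. The log2 fold change was -4.95 without 20E replicate 3 (SE 0.65, edgeR adjusted p = 0.0177) and -3.88 with it (SE 0.72, adjusted p = 0.37). The JHA ovaries spread widely, with 15.9, 0 and 12.0 CPM in replicates 1, 2 and 3. HSALG021727.1 was at 0.294, 0.194 and 2.30 CPM with 20E and 2.21, 3.62 and 5.48 CPM with EtOH. Here 20E replicate 3 overlapped the EtOH libraries, and the log2 fold change was -3.89 without it (SE 0.56, edgeR adjusted p = 0.0187) and -2.05 with it (SE 0.88, adjusted p = 1).

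The 4 genes named for the 6-library comparison were also called without 20E replicate 3. They had been chosen by p-values from a fit that held these same libraries, so this is no separate support. The adjusted p in edgeR was 0.0133 for HSALG010206.2 (log2 fold change 1.35), 0.0105 for HSALG004246.2 (-1.07) and 0.0125 for HSALG023655.1 (-1.19), beside HSALG000871.2 above.

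20E replicate 3, which took no part in these 368 calls, lay on either side of the EtOH libraries. Of the 81 genes called higher, it lay above every EtOH library in 25 (30.9%), below every one in 56 (69.1%) and within the EtOH range in 0. Over all 11476 genes tested it lay above in 30.8%, below in 36.6% and within in 32.6%, so the share above was near that of all genes. Over the 2408 genes in which 20E replicates 1 and 2 both lay above EtOH, called or not, these shares were 18.1, 61.9 and 20.1%. The median log2 range of the 3 EtOH libraries was 0.26 in the 81 genes, 0.35 in the 287 called lower and 0.29 in all genes. All ratios given here use the same 3 EtOH libraries, so they are a description and no test. The 25 and the 56 were defined by the position of replicate 3, so its values in them restate that choice. In the 25, the median log2 ratio to the EtOH mean was 1.12, 1.46 and 1.88 in 20E replicates 1, 2 and 3, and replicate 3 was the highest of the 3 in 18. In the 56, it was 0.67, 0.75 and -0.97. The 56 held 19 of the 20 ovary-enriched genes called higher, and the 25 held 1.

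The JHA ovaries were set beside these sets. In the 56 genes, JHA replicate 1 had a median log2 ratio to EtOH of -1.27, and JHA replicates 2 and 3 were at 0.32 and 0.33. In the 25 genes the JHA libraries were at 0.14, -0.08 and -0.07. The median ratio over all genes was between -0.03 and 0.02 in each of the 20E and JHA libraries. The JHA ovaries took no part in choosing either set. JHA replicate 1, the JHA library with a low median in the 56, also had the lowest ovary-enriched share of the 9 libraries. That share used a list defined in the JHA libraries, and the part of tissue content was not tested.

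Of the 287 genes called lower, 20E replicate 3 lay below every EtOH library in 92 (32.1%), within their range in 80 (27.9%) and above every one in 115 (40.1%). The share below was under the 36.6% of all genes. Over the 2507 genes in which 20E replicates 1 and 2 both lay below EtOH, called or not, it lay below in 25.5%, within in 29.8% and above in 44.7%. Sets defined by replicate 3 again fix on which side its values lie. In the 92, the median log2 ratio to the EtOH mean was -1.25, -1.30 and -0.49 in 20E replicates 1, 2 and 3, and replicate 3 was the highest of the 3 in 88. In the 115, it was -0.76, -0.81 and 0.40. Over the 287, the medians were 0.35, -0.59 and -0.37 in JHA replicates 1, 2 and 3.

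**Figure D4:**
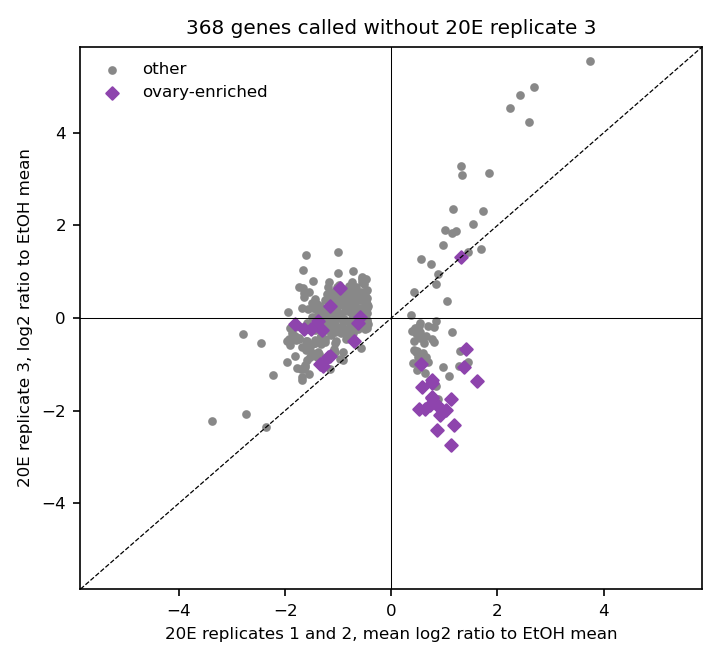
The 368 genes called without 20E replicate 3, with the mean log2 ratio of 20E replicates 1 and 2 to the EtOH mean (x axis) against that of 20E replicate 3 (y axis); diamonds are ovary-enriched genes and the dashed line marks equal values. Genes on the right split into 25 that are high in replicate 3 too and 56 that are low there, which hold 19 ovary-enriched genes.

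The number of calls without 20E replicate 3 also rested on the other 5 libraries. It was 27 without 20E replicate 2 and 111 without 20E replicate 1, of which 19 and 83 were among the 368. With 1 library left in the 20E group, that library is assumed to vary like the EtOH ones. It was 89, 665 and 62 without EtOH replicate 1, 2 and 3, of which 76, 345 and 54 were among the 368. When the 3 JHA ovaries shared the fit, 0 genes passed in edgeR, with 990 at an unadjusted p under 0.05, and when JHA replicate 1 was kept out 370 passed, 286 of them among the 368.

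The 20E difference was then set beside that in brain and fat body, each fitted on its own 6 libraries. In brain 119 of 12182 genes were called (0.977%), 103 higher (0.846%) and 16 lower (0.131%), and in fat body 33 of 9564 (0.345%), 23 higher (0.24%) and 10 lower (0.105%). Of the 81 genes called higher in ovary without 20E replicate 3, 7 were also called higher in brain, which is 8.64% of the ovary list and 6.80% of the brain list. Only 65 of the 81 were tested in brain, and the 7 were 10.8% of those. With fat body the overlap was 1 gene, 1.23% of the ovary list, 1.92% of the 52 tested there and 4.35% of the fat body list. Of the 287 called lower, 3 were called lower in brain and 2 in fat body, 1.05 and 0.697% of the ovary list and 18.8 and 20.0% of the other lists. Of the 287, 270 were tested in brain and 254 in fat body, and the overlaps were 1.11 and 0.787% of those. Another 4 of the 287 were called higher in brain. The labels do not say whether equal replicate numbers in different tissues mark the same ant.

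HSALG000871.2 and HSALG023396.1 had higher means with 20E in each tissue. HSALG000871.2 averaged 4.16 ± 2.00 CPM with 20E and 0.472 ± 0.256 CPM with EtOH in brain (SD, n = 3 each), a call by edgeR (log2 fold change 3.13, SE 0.54, adjusted p = 0.043). In fat body it averaged 20.4 ± 15.1 CPM with 20E and 2.93 ± 0.672 CPM with EtOH, a log2 difference of 2.80 that did not pass (edgeR adjusted p = 0.103). With JHA, unlike in ovary, it lay above every EtOH library in both tissues. It was at 1.33 to 1.96 CPM in brain and 6.46 to 11.2 CPM in fat body, which was not tested. HSALG023396.1 was at 24.5, 19.2 and 24.6 CPM with 20E in brain, against 1.42, 1.33 and 0.853 CPM with EtOH (log2 fold change 4.22, SE 0.26, edgeR adjusted p = 0.00075). In fat body it was at 1.76, 2.68 and 7.33 CPM with 20E and 1.47, 0.157 and 0.145 CPM with EtOH, which did not pass (adjusted p = 0.31). Its JHA values overlapped EtOH in both tissues. The replicate labelled 3 had the highest 20E value of both genes in all 3 tissues. HSALG010206.2 was mainly an ovary transcript, at 2.53 CPM or less in every brain and fat body library. It averaged 2.18 ± 0.390 CPM with 20E and 0.425 ± 0.307 CPM with EtOH in brain, which did not pass (edgeR adjusted p = 0.105). Among the named genes lower in ovary, HSALG005056.2, HSALG004246.2 and HSALG023655.1 were lower with 20E in brain too, without overlap. None of them passed there (edgeR adjusted p = 0.114, 0.102 and 0.0975). HSALG021727.1 overlapped in brain, and all of these genes overlapped in fat body.

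Whether the 20E difference in ovary was unlike that in another tissue was tested as an interaction over 18 libraries. Against brain, 2 of 13161 genes differed (0.0152%), both with the lower effect in ovary, and 574 (4.36%) had an unadjusted p under 0.05. HSALG015071.2 was at 60.8, 54.3 and 74.2 CPM with 20E and 58.6, 48.8 and 52.3 CPM with EtOH in ovary, so the ovary groups overlapped. In brain it was at 218, 351 and 564 CPM with 20E and 37.3, 33.9 and 32.7 CPM with EtOH. The ovary effect was 3.17 log2 units below the brain effect (difference -3.17, SE 0.43, edgeR adjusted p = 0.0134). The other, HSALG013686.2, named after its values were seen, had a difference of -3.19 (SE 0.44, adjusted p = 0.0134). Among genes with the opposite sign, HSALG029272.1 came closest, with a difference of 2.51 (SE 0.53, edgeR adjusted p = 0.221), and did not pass. Without ovary 20E replicate 3 the count was 15. It was 12 without brain 20E replicate 1 and 0 without ovary 20E replicate 2 or any 1 of the EtOH brain libraries, and 38 with DESeq2.

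Against fat body, 95 of 13161 genes differed (0.722%), 45 with the higher (0.342%) and 50 with the lower effect in ovary (0.38%), and 1290 (9.8%) had an unadjusted p under 0.05. HSALG030197.1 was at 5.30, 5.24 and 4.38 CPM with 20E and 4.84, 8.66 and 7.98 CPM with EtOH in ovary, where it did not pass. In fat body it was at 14.3, 16.0 and 25.2 CPM with 20E and 0.536, 0.944 and 0.289 CPM with EtOH. The ovary effect minus the fat body effect was -5.46 (SE 0.49, edgeR adjusted p = 7.52e-05). HSALG009116.1 averaged 13.2 ± 1.38 CPM with 20E and 13.2 ± 2.08 CPM with EtOH in ovary (SD, n = 3 each). In fat body it averaged 28.7 ± 2.55 CPM with 20E and 157 ± 31.2 CPM with EtOH. The difference of effects was 2.49 (SE 0.24, edgeR adjusted p = 0.000107). Without ovary 20E replicate 3 the count was 166, and without ovary 20E replicate 1 or 2 it was 62 and 41. Without ovary EtOH replicate 1, 2 or 3 it was 47, 44 and 50, and without fat body 20E replicate 1 or 3 it was 171 and 61. The lists of genes called in ovary came from the fit without 20E replicate 3, whereas the differences between tissues were fitted with it. Of the 81 genes called higher in ovary, 1 had a called difference from fat body, and it was below 0. Its effect was thus the higher one in fat body. Of the 287 called lower 3 had one, 2 below 0 (the lower effect in ovary) and 1 above 0. The 2 genes that differed from brain were in neither list. A difference that missed the threshold does not show that the effects were alike.

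**Figure D5:**
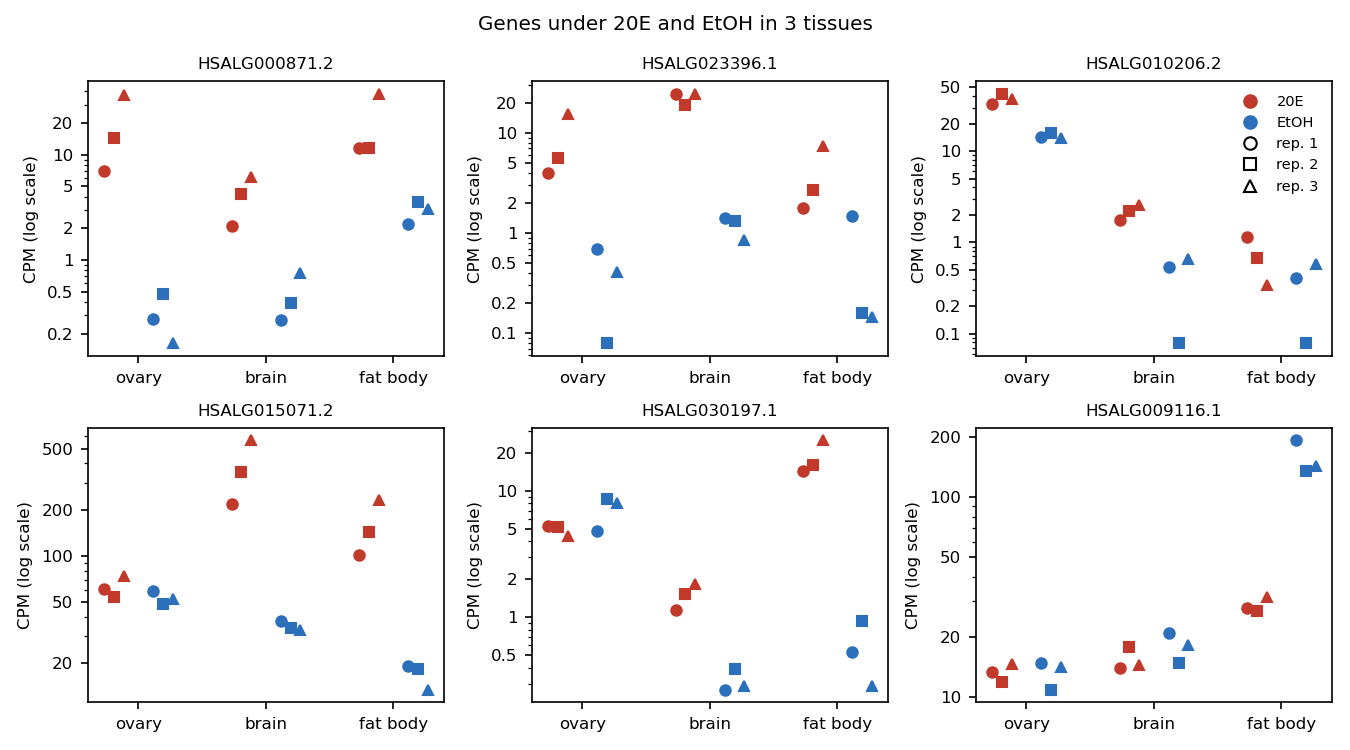
CPM (log scale, y axis) of 6 genes in the 20E and EtOH libraries of ovary, brain and fat body (x axis), with the 20E points left of the EtOH points of each tissue; each point is 1 library and its shape the replicate number. HSALG000871.2 and HSALG023396.1 have higher means with 20E in each tissue, whereas HSALG015071.2, HSALG030197.1 and HSALG009116.1 differ in fat body with overlapping values in ovary.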

How the data were processed

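Poly(A) RNA libraries were sequenced on an Illumina HiSeq, per the labels' protocols. The authors deposited whole-number read counts per gene, for which the submitters' processing notes list Trimmomatic, STAR 2.5.3a and HTSeq. Not given in the sources used here are the build, the annotation and whether counting used strand, so overlapping, antisense and near-identical genes may share reads. The 5 HTSeq summary lines entered neither library sizes nor tests; in the 6 ovaries, no-feature reads were 35.0 to 38.5% and multiply aligned reads 6.58 to 7.87% of each column.

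The test was that of edgeR 4.0.16 under R 4.3.3 (TMM, filterByExpr, robust glmQLFit and glmQLFTest, no replicate block), over the 6 libraries compared, the 5 without 20E replicate 3, or, for differences between tissues, 18 libraries. JHA ovaries were kept out of the ovary fit because they belong to neither group and 1 was known from earlier results to stand apart; fits with them were alternatives. DESeq2 1.42.0, limma 3.58.1, other scalings and filters, a replicate block and leaving out each library were alternatives. The scripts were tested on simulated data. CPM use TMM library sizes over the 9 libraries of a tissue. Log2 ratios to EtOH are on the log2(CPM + 0.5) scale.

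In each ovary comparison at most 2 genes per direction were named: those with the largest fold change among called genes with at least 2 CPM and no overlap, or, where fewer than 5 passed, those with the smallest p at the same minimum level. For differences between tissues it was the smallest p in each direction. Members, lists and tests were chosen with earlier results of these data known.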

Additional observations from a re-analysis of the deposited data

Results flagged for a closer look

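The test of the difference between tissues singled out 2 genes whose 20E effect in ovary was unlike that in brain, led by HSALG015071.2 with a difference of -3.17 log2 units, and 95 genes whose effect was unlike that in fat body. Of these, HSALG030197.1 had a difference of -5.46 and HSALG009116.1 one of 2.49. The calls of HSALG030197.1 and HSALG009116.1 held in 16 of 16 alternative fits. That of HSALG015071.2 held in 12 of 16 and was lost without any 1 of the EtOH brain libraries or without ovary 20E replicate 2.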

How the results depend on the processing

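The 0 calls of the 6-library comparison became 102 with DESeq2, 355 with library weights in limma voom and 39 with the replicate block, and 0 to 368 with 1 library left out. They stayed at 0 with DESeq2's size factors in edgeR, with no filter on low counts, and with JHA ovaries in the fit, with or without JHA replicate 1. The 368 calls without 20E replicate 3 became 1061 with DESeq2, 762 with no filter, 645 with the replicate block, 0 with all JHA ovaries in the fit, and 27 to 665 with another library left out. The differences from brain became 38 with DESeq2 and 6 with the replicate block (0 to 15 with 1 library left out), and those from fat body 295 with DESeq2 (41 to 171). The replicate numbers were not taken as a pairing. Deviations of same-numbered 20E and EtOH ovaries correlated at -0.127, -0.0300 and 0.227. Of the 20E libraries, only replicate 3 correlated best with its own number. Deviations from a mean of 3 libraries depend on each other, so these values cannot decide whether the numbers mark pairs. The difference in ovary-enriched share, -0.0582 percentage points, ran from -0.567 to 0.945 with 1 library left out, that in brain-enriched share, 0.0285, from -0.0657 to 0.0766, and that in fat-body-enriched share, 0.203, from -0.0591 to 0.376, and each changed sign without 20E replicate 3, the ovary-enriched one also without EtOH replicate 2 (0.0320). The cause was not tested. Named genes reversed in no alternative. The adjusted p of the 4 genes of the 6-library comparison ran from 1.00e-12 to 1, and 3 or 4 of 13 alternatives called each. Without 20E replicate 3, HSALG000871.2 was called in 11 of 12 alternatives, HSALG005056.2 and HSALG023396.1 in 8 and HSALG021727.1 in 7. With 3 ants a group, and 2 without 20E replicate 3, the number of ants limits precision, and genes at a few counts per library, such as HSALG000871.2 with EtOH, have uncertain folds.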

Other observations

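Genes called in brain gave a view of each ovary library that used no ovary value to choose them. Of the 103 genes that rose with 20E in brain, 94 were tested in ovary, where their median log2 ratio to the EtOH mean was -0.09 and -0.02 in 20E replicates 1 and 2 and 0.54 in 20E replicate 3. In JHA replicates 1, 2 and 3 it was -0.30, -0.17 and -0.15. The median over all ovary genes was -0.03 in 20E replicate 3. With all 6 libraries, 18 of the 94 had an unadjusted p under 0.05 in the same direction (edgeR), against 4.42% of all genes in either direction. The median log2 fold change of the 94 in ovary was 0.14 with all 6 libraries and -0.09 without 20E replicate 3. For the 22 genes tested of the 23 that rose in fat body, the medians were 0.05, 0.04 and 0.44 in 20E replicates 1, 2 and 3. The ovary library that stood apart from the other 20E ovaries was thus the one in which genes raised in brain and fat body were highest. Its fat-body-enriched and brain-enriched shares were also the highest of the 6, and their part in these medians was not tested. The 13 genes tested of the 16 lower in brain had medians of 0.11, 0.09 and -0.18, and the 10 lower in fat body had medians of -0.26, -0.28 and -0.16.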
